A study of Mus musculus with 19 samples.

Results

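Saa3, Lcn2, Slpi, C3, Ptx3, Hp and Orm1 encode secreted proteins of the acute phase reaction and of innate defence. They were taken by symbol from the count table, in which they are 7 of 46095 symbols, and all 7 passed the filter on low counts in every fit. They had been selected on their CPM in the 8 groups of these same libraries, so their levels and differences are given as a description and carry no test. The study sequenced RNA of marrow cells of C57BL/6 mice in 19 libraries. The treated mice were centrifuged at 15 G in sessions of 15 min for about 1 or 3 weeks, and the control mice, labelled as normally fed, were listed at 0 G.

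Cells were of 2 kinds. BMDM, or bone marrow-derived macrophages, arise in culture from marrow precursors given M-CSF. BMSC, or bone marrow mesenchymal stem cells, are stromal cells of the marrow that adhere to plastic. The growth protocol given for both cell types is that of macrophage culture. In the 1 week set there were 3 control and 2 hypergravity BMDM libraries and 3 of each for BMSC. In the 3 week set there were 2 of each for both cell types. No duration is labelled for the 1 week controls, which were matched by the pattern of their names, and duration and set cannot be told apart. Whether replicates were separate animals or cultures is not labelled, and p-values therefore measure only the spread between these libraries, which may be technical.

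The acute phase reaction is the change in secreted proteins that follows inflammation or injury. Interleukin-6 and interleukin-1 drive it, acting through STAT3, NF-kappaB and C/EBP transcription factors. The liver is the main source of the plasma proteins, but several of these genes are also switched on in macrophages, neutrophils and stromal cells. Saa3 encodes a serum amyloid A made mostly outside the liver in mice. Lcn2 encodes lipocalin 2, which withholds iron from bacteria by binding their siderophores. Haptoglobin (Hp) binds free haemoglobin, and Orm1 encodes orosomucoid, a plasma carrier of small molecules. Slpi encodes an inhibitor of neutrophil elastase. C3 is the central component of complement, and Ptx3 encodes a long pentraxin that recognises microbes and binds the complement protein C1q.

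Per library the files held 16.32 to 33.02 M counts (1e6), and 3 counts, the limit used for a gene with none, were worth 0.0909 to 0.184 CPM (counts per 1e6 counts). The labelled macrophages carried macrophage markers at 21750 to 31770 CPM in sum over 8 genes, and stromal markers at 10.3 to 62.4 CPM over 9 genes. The labelled BMSC carried stromal markers at 1672 to 10310 CPM, but the sum of their macrophage markers, at 22320 to 27950 CPM, lay within the BMDM range. Lyz2 made up most of that sum, with means of 20050 CPM in BMSC and 18430 CPM in BMDM. Csf1r and Adgre1 were at most 1510 and 1141 CPM in BMSC and at least 1786 and 1441 CPM in BMDM. Mean Cd68 was also lower in BMSC, and mean Mertk, C1qa, C1qb and C1qc were higher. Neutrophil markers (13 genes) summed to 1215 to 3272 CPM in BMSC and 131.6 to 734.4 CPM in BMDM. The 6 hepatocyte markers summed to at most 6.82 CPM in any library. They were at 5.50 to 6.82 CPM in all 8 libraries of the 3 week set and at no more than 1.02 CPM in the 1 week set, in controls and hypergravity alike. Bulk RNA cannot tell fewer cells of a type from less RNA per cell.

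The genes lie at separate loci. In GENCODE M21 (GRCm38), Saa3 spans chr7:46711998-46715700, Lcn2 chr2:32384633-32388252, Slpi chr2:164354070-164389095 and C3 chr17:57203970-57228136, all on the minus strand. Hp spans chr8:109575128-109579172 on the minus strand, Ptx3 chr3:66219910-66225805 on the plus strand and Orm1 chr4:63344560-63348163 on the plus strand. Since all 7 were higher together in one condition, their promoters were read from RefSeq (GRCm38.p6), which held 5 of the 7; Hp and Orm1 had no entry. Each window runs from 250 bases before to 50 bases after the RefSeq start site of a gene, 5′ to 3′ on its own strand. For Slpi and Lcn2 that start lies inside the GENCODE span, 32588 and 513 bases from its upstream end. Capitals mark matches on either strand to 3 of 4 searched motifs, namely TTNNGCAA for C/EBP, GGG, any 5 bases and CC for NF-kappaB (kappaB) and TATAAA for the TATA box.
Saa3, chr7:46715627-46715926, minus strand, C/EBP in capitals: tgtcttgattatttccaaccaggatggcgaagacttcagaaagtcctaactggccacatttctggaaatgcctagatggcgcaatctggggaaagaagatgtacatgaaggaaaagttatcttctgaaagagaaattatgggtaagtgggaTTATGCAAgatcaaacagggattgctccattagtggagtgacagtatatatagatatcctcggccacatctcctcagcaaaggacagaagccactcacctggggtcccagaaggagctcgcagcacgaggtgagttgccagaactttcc
Lcn2, chr2:32387690-32387989, minus strand, C/EBP then kappaB in capitals: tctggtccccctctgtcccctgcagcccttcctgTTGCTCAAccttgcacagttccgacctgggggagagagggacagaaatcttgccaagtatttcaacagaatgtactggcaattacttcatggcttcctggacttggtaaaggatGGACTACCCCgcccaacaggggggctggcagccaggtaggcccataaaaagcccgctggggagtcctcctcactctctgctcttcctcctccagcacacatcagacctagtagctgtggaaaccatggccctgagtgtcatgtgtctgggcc
Slpi, chr2:164356458-164356757, minus strand, C/EBP in capitals: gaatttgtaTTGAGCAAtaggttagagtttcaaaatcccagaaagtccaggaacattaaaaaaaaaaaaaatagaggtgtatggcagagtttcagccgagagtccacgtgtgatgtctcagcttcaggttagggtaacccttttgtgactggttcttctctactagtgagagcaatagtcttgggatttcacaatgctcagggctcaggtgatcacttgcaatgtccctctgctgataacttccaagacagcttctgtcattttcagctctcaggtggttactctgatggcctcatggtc
C3, chr17:57228087-57228386, minus strand, overlapping kappaB pair, C/EBP, kappaB, kappaB and TATA in capitals: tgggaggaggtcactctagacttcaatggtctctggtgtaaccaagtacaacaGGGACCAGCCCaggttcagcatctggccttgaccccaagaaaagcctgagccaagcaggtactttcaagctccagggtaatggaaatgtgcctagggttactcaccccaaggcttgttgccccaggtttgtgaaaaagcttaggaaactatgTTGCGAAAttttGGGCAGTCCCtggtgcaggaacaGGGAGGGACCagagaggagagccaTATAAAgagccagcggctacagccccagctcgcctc
Ptx3, chr3:66219637-66219936, plus strand, C/EBP then overlapping kappaB pair in capitals: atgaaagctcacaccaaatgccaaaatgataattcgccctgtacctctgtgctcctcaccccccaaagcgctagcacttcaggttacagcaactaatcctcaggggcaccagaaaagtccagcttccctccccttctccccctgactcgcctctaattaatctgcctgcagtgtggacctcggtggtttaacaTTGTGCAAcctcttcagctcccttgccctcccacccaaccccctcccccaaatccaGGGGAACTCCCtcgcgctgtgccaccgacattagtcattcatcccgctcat

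The C/EBP letters were in 5 of the 5 windows, against 10.8% of the 32851 RefSeq promoter windows. Counted from the start site at 0, the matches began at -99 in Saa3, -216 in Lcn2, -241 in Slpi, -45 in C3 and -57 in Ptx3. The kappaB letters were in 3 of 5 (Lcn2, C3 and Ptx3), against 50.8% of all windows, and the TATA letters in 1 of 5 (C3), against 13.6%. That TATA match ran from 14 to 19, after the start site used. The fourth motif, TTCNNNGAA for STAT factors, matched none of the 5 and 8.30% of all windows. These common forms of the motifs were chosen after the 5 windows had been read, so the counts are only a description. A match shows that the letters are there, not that a factor binds, and no match says only that these letters are not in this window.

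**Figure D1:**
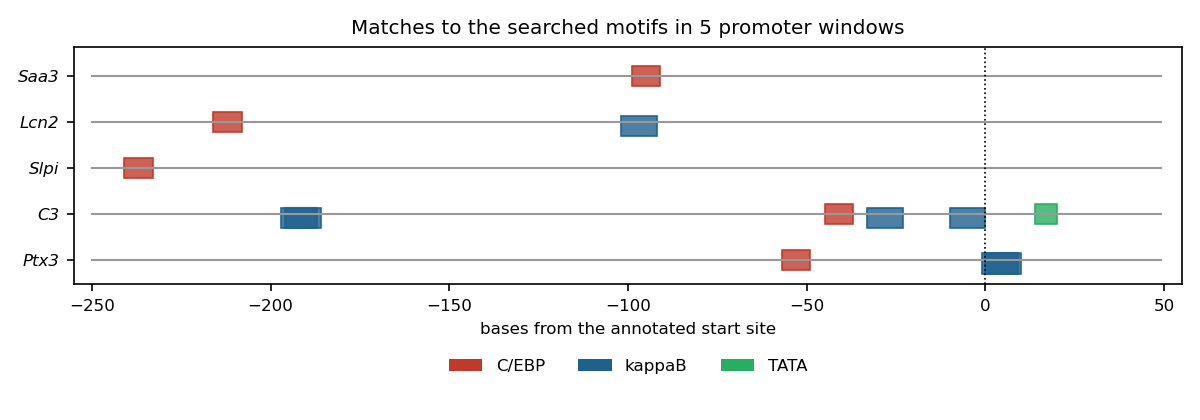
Positions of motif matches in the 5 promoter windows, in bases from the annotated start site at 0 (horizontal axis), 1 line per gene. All 5 windows hold a C/EBP match (red), 3 hold kappaB matches (blue) and the C3 window alone holds a TATA match (green).

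Macrophages of the 1 week set were the setting in which all 7 genes were higher under hypergravity without overlap. Each gene was higher in both hypergravity libraries than in all 3 controls, by a log2 difference of 3.15 to 12.59, with a median of 5.02 against -0.03 over all 13842 genes tested. By CPM, 25.7% of all genes had every hypergravity library above every control and 47.4% had every one below. All 7 were called higher in edgeR (Benjamini-Hochberg adjusted p below 0.05), where 30.5% of all genes were called higher and 30.8% lower. The contrast chose the genes, so this count is only a description.

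Saa3 stood at 4.39, 2.62 and 2.92 CPM in the controls and at 17870 and 17220 CPM under hypergravity, a log2 difference of 12.59 ± 0.25 (SE). It went from rank 10184 to rank 2 among all symbols by mean CPM. With hypergravity it took 1.75% ± 0.0462 of all counts (SD, n = 2) and made up 83.4% of the counts of the 7 genes, against 2.25% of them in controls. All 7 together took 2.10% ± 0.0457 of counts under hypergravity (n = 2) and 0.0160% ± 0.00631 in controls (n = 3).

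The binding proteins for iron, haemoglobin and small ligands followed. Lcn2 was at 24.1, 14.6 and 37.3 CPM in controls and at 1055 and 975.4 CPM under hypergravity (log2 difference 5.59 ± 0.37). Hp was at 30.1, 27.4 and 23.9 CPM against 764.8 and 701.6 CPM (5.02 ± 0.17). Both genes had a wide gap between the arms, and the controls of Lcn2 spread more than those of Hp. Orm1 was low in controls, at 0.833, 0.763 and 0.907 CPM, and reached 23.5 and 19.1 CPM (4.92 ± 0.25).

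Slpi, the elastase inhibitor, had nearly equal controls at 2.88, 3.00 and 2.92 CPM and reached 378.1 and 357.3 CPM (7.23 ± 0.10), the second highest difference of the 7 after Saa3. C3 was the most abundant of them in controls, at 65.4, 68.4 and 163.1 CPM, and reached 1245 and 1422 CPM (4.02 ± 0.33). Control replicate 3 stood above the other 2 controls for C3 and Lcn2. Ptx3 differed least, from 1.19, 1.14 and 1.16 CPM to 9.81 and 7.57 CPM (3.15 ± 0.26).

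**Figure D2:**
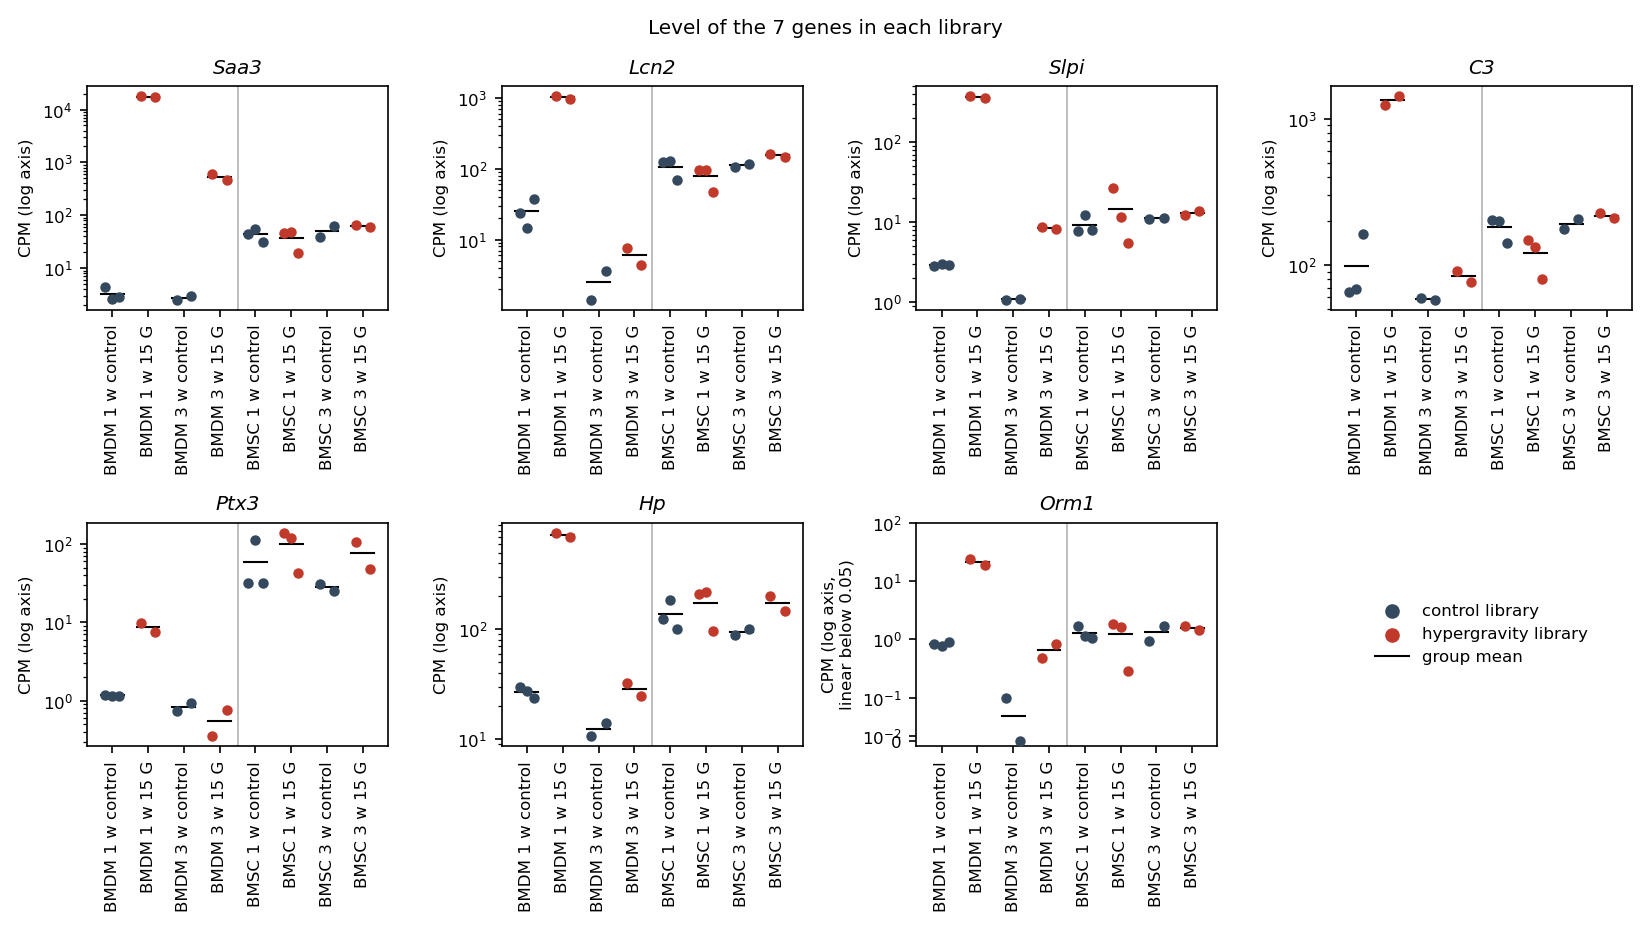
Level of each gene in every library, in CPM on a log axis (linear below 0.05 for Orm1, where 1 library is at 0), for the 8 groups of 2 or 3 libraries. Points are libraries, dark for control and red for hypergravity, and bars are group means; 6 of the 7 genes have their highest group in 1 week hypergravity BMDM, and Ptx3 is highest in BMSC.

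Per kilobase of exon the order within the 7 changed. The length counted every base annotated as exon in any transcript of a gene. Which transcripts were expressed was not examined, so the order between genes holds only for this length. In 1 week control BMDM, C3 led at 19.2 ± 10.8 CPM per kb (SD, n = 3), Hp followed at 16.9 ± 1.93 and Saa3 stood at 1.27 ± 0.364. Under hypergravity Saa3 led at 6732 ± 177 CPM per kb (n = 2), Hp was second at 456.5 ± 27.8, Lcn2 was next at 387.0 ± 21.4, and C3 stood below Slpi at 259.2 ± 24.4. Ptx3 was last in both groups, at 0.434 ± 0.00778 and 3.24 ± 0.590 CPM per kb.

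Close relatives of 2 of the genes gave counts in the same libraries. Saa1 had 385 counts over the 2 hypergravity libraries and 0 over the 3 controls, at least 168.1-fold higher against 3 counts over the control group (edgeR adjusted p = 2.749e-06). Saa2, Saa4, Orm2 and Orm3 had 27, 14, 27 and 15 counts under hypergravity and 0 in controls. These are near-identical or similar copies of Saa3 and Orm1, and how reads shared between copies were counted is not given in the sources used here, so the split between relatives is uncertain.

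In macrophages of the 3 week set the genes divided. Saa3, Slpi, Hp, Lcn2, C3 and Orm1 were higher in both hypergravity libraries than in both controls, and the 2 arms of Ptx3 overlapped. Of all genes, 12.8% had every hypergravity library above every control and 24.9% below. By the call rule, Saa3, Slpi and Hp were called higher, which makes 3 of 7 where 0.426% of all genes were called higher and 0% lower. As the levels in these groups chose the genes, nothing is read from that count. The median log2 difference of the 7 was 1.32, against 0.00 over all genes.

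Saa3 was at 2.55 and 2.93 CPM in controls and at 606.7 and 458.6 CPM under hypergravity, a log2 difference of 7.64 ± 0.26, and held 80.8% of the counts of the 7 genes. It ranked 10482 in controls and 227 under hypergravity. Slpi went from 1.08 and 1.09 to 8.72 and 8.37 CPM (3.01 ± 0.14). Both genes were far below their 1 week hypergravity levels. Hp went from 10.6 and 14.0 to 32.7 and 24.6 CPM (1.26 ± 0.19).

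Orm1 rested on few counts, with 25 over the hypergravity libraries and 2 over the controls, 12.7 times as many per count sequenced (exact 95% interval 3.16 to 110.5, for counting error only). Lcn2 was at 1.43 and 3.57 CPM in controls and at 7.57 and 4.42 CPM under hypergravity (1.32 ± 0.52), so that even its hypergravity libraries lay below the lowest 1 week control at 14.6 CPM. C3 was at 59.8 and 57.9 against 90.1 and 76.6 CPM (0.54 ± 0.36). Ptx3 was at 0.737 and 0.943 against 0.352 and 0.756 CPM (-0.61 ± 0.41).

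The 3 week response minus the 1 week response was below 0 for each gene in log2, at -4.95 for Saa3, -4.27 for Lcn2, -4.22 for Slpi, -3.76 for Ptx3 and Hp, -3.48 for C3 and -1.35 ± 1.26 for Orm1. Leaving out 1 library at a time moved this value for Orm1 between -2.26 and 1.89, so its direction depends on the library left out. By the call rule 6 of 7 were lower, all but Orm1, where 21.5% of all genes were lower and 21.9% higher. This count too is only a description, since the levels chose the genes. The controls of the 2 sets differed as well. Between 3 week and 1 week control BMDM, Lcn2 differed by -3.38 ± 0.46 in log2 and Orm1 by -3.98 ± 0.63, but Saa3 by only -0.36.

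**Figure D3:**
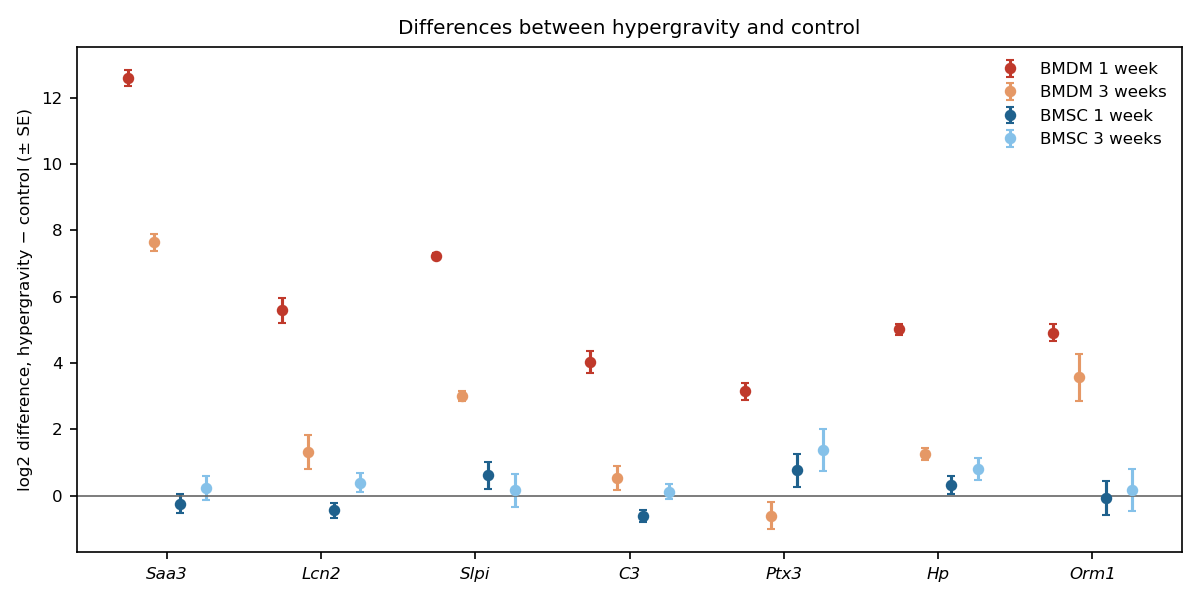
Log2 difference between hypergravity and control (vertical axis, ± SE from edgeR) for the 7 genes in the 4 comparisons. In BMDM at 1 week all 7 lie between 3.15 and 12.59, at 3 weeks Saa3 is the highest at 7.64, and in BMSC all values lie between -0.62 and 1.39.

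BMSC held the genes at a higher mean control level than BMDM did, and the 2 arms lay closer together for all but Ptx3 at 3 weeks. In the 1 week set the difference between controls was small for Orm1 (log2 0.43 ± 0.44). For C3 (0.67 ± 0.26) the control libraries of the 2 cell types overlapped. In the 1 week set the arms of all 7 genes overlapped, where 11.2% of all genes had every hypergravity library above every control and 9.33% below, and log2 differences ran from -0.62 ± 0.18 for C3 to 0.77 ± 0.50 for Ptx3. None of the 7 was called, where 0.249% of all genes were called higher and 2.47% lower. The difference between cell types in the 1 week response (BMDM minus BMSC) was above 0 for each gene, from 2.37 for Ptx3 to 12.84 for Saa3. All 7 were called higher, where 24.8% of genes were higher and 24.8% lower. The levels in these groups chose the genes, so nothing is read from that count either.

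Saa3 in 1 week BMSC was at 45.1, 55.01 and 31.8 CPM in controls and 45.7, 48.4 and 19.5 CPM under hypergravity. C3 was at 201.2, 200.2 and 140.3 against 148.1, 132.8 and 80.2 CPM, and Hp at 124.5, 187.2 and 101.5 against 211.2, 218.1 and 97.4 CPM. Hypergravity replicate 3 was the lowest of its group for all 7 genes. In that library the neutrophil markers summed to 1215 CPM and the stromal markers to 4960 CPM, the lowest of its group for both lists.

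At 3 weeks, 5 of the 7 genes in BMSC had both hypergravity libraries above both controls, and the arms of Saa3 and Orm1 overlapped. That separation was common, with 31.2% of all genes above in this way and 14.4% below. None of the 7 was called in edgeR with the count filter, and 0% of all genes were called higher and 0% lower. Ptx3 was at 30.4 and 25.3 CPM in controls and 106.0 and 47.6 CPM under hypergravity (1.39 ± 0.63). Hp was at 89.3 and 101.6 against 201.2 and 147.9 CPM (0.80 ± 0.32), and Lcn2 at 107.3 and 117.1 against 161.5 and 147.3 CPM (0.40 ± 0.29). Beside them the stromal markers summed to 2139 and 1672 CPM in controls and 7398 and 3316 CPM under hypergravity, and the neutrophil markers to 2430 and 2515 against 3224 and 3033 CPM. No marker of either list was called in edgeR in that comparison, and at an unadjusted p below 0.05 there were 4 of 9 stromal markers, all higher, and 0 of 13 neutrophil markers.

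Within BMSC, libraries that were high for some of the genes were also high for markers of other cells. Lcn2 was lowest, at 47.6 CPM, in 1 week hypergravity replicate 3, whose neutrophil markers had the lowest sum at 1215 CPM. It was next lowest, at 69.0 CPM, in 1 week control replicate 3, where that sum was next lowest at 1909 CPM. The highest Lcn2, 161.5 CPM, was in 3 week hypergravity replicate 1, with a sum of 3224 CPM, and the highest sum, 3272 CPM, was in 1 week control replicate 2, with Lcn2 at 127.7 CPM. Saa3 and C3 were also lowest in 1 week hypergravity replicate 3, at 19.5 and 80.2 CPM.

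For Ptx3 and Hp the stromal markers moved with the level. Ptx3 was at 106.0 to 139.2 CPM in the 4 libraries whose stromal markers summed to 7398 to 10310 CPM, and at 25.3 to 47.6 CPM in the other 6, where the sum was 1672 to 4960 CPM. Hp was at 187.2 to 218.1 CPM in the same 4 libraries and at 89.3 to 147.9 CPM in the other 6. The 4 libraries came from 3 groups, 1 of them a control group. These values were set side by side after the levels had been seen, and the part of the makeup of the cultures in them was not tested.

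**Figure D4:**
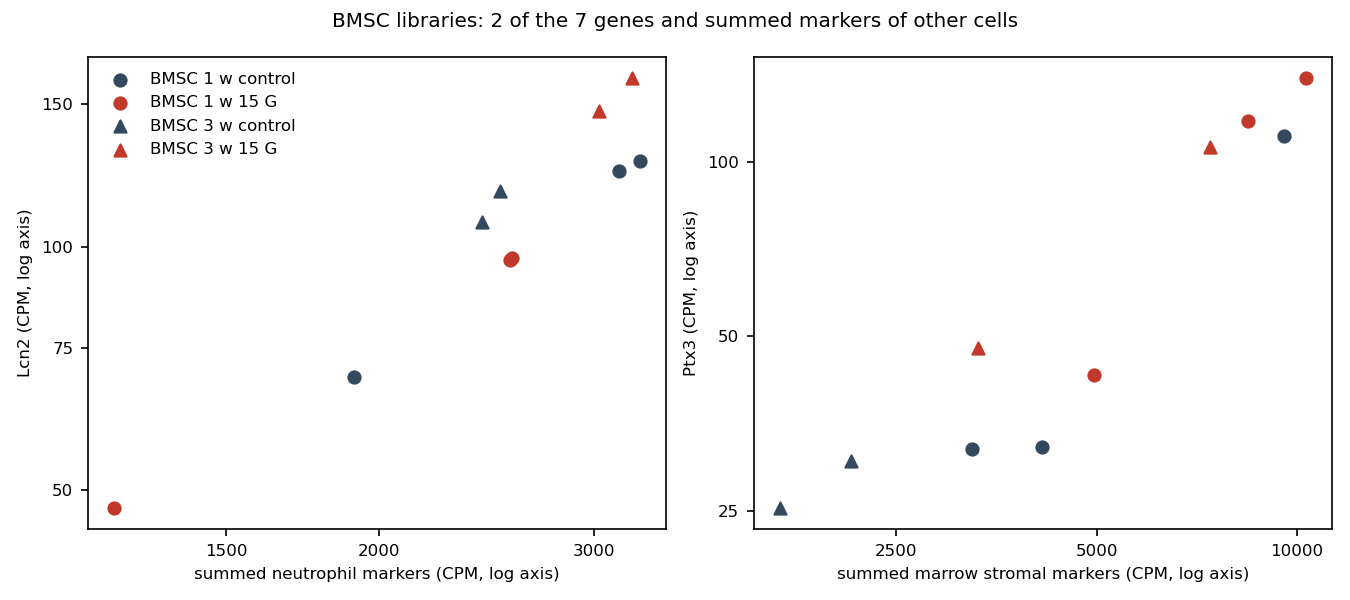
Lcn2 against the summed neutrophil markers and Ptx3 against the summed stromal markers in the 10 BMSC libraries (CPM, log axes); circles are the 1 week set, triangles the 3 week set, red is hypergravity. Lcn2 runs from 47.6 to 161.5 CPM as neutrophil markers run from 1215 to 3272 CPM, and Ptx3 from 25.3 to 139.2 CPM as stromal markers run from 1672 to 10310 CPM.

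Marker sums of the 1 week macrophage cultures are set beside these, and the part of the makeup of the cultures was again not tested. Macrophage markers summed to 28810 to 31770 CPM in controls and 21750 to 22310 CPM under hypergravity. Of the 8 tested, edgeR called 6 lower and 1 higher, where 30.8% of all genes were lower and 30.5% higher. In 1 week BMDM the neutrophil markers summed to 541.9, 426.0 and 734.4 CPM in controls and 410.6 and 388.1 CPM under hypergravity, while the mean CPM of Lcn2 and Hp were 40.1 and 27.1 times those of controls. Of 12 neutrophil markers tested, 8 fell and 1, the G-CSF receptor gene Csf3r, rose (log2 1.14 ± 0.13, edgeR adjusted p = 2.834e-05). Mpo, the myeloperoxidase of neutrophil granules, had 661 counts in controls and 3 under hypergravity, and Retnlg had 152 and 0. Retnlg, at 0 under hypergravity, could only fall. The hepatocyte markers were at 0.0504 to 0.481 CPM in sum in controls and 0.0909 to 0.200 CPM under hypergravity, with Alb, Serpina1a and Ahsg at 0 in the latter. The endothelial markers summed to 9.71 to 15.4 CPM in controls and 38.7 to 44.8 CPM under hypergravity, with Tek at 0 there. Much of the latter sum was Kdr, which reached 34.5 CPM. Of the 4 tested, edgeR called Kdr (log2 3.11 ± 0.28) and Pecam1 (0.82 ± 0.18) higher and Emcn lower (-2.28 ± 0.81). Cdh5 was not called (0.11 ± 0.56). The part of these markers in the result was not tested.

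Ordered by mean CPM over the 8 groups, 1 week hypergravity BMDM came first for 6 genes, apart from the next group in every case. For Saa3 the 3 week hypergravity BMDM followed at 532.7 CPM, again apart, then the 4 BMSC groups from 63.2 down to 37.9 CPM, neighbours of which overlapped, and last both BMDM controls, which also overlapped. For Lcn2 the order ran from BMSC groups (154.4 to 80.2 CPM) to 1 week control BMDM (25.3), 3 week hypergravity BMDM (6.00) and 3 week control BMDM (2.50 CPM). For C3, 1 week hypergravity BMSC (120.4 CPM), 1 week control BMDM (99.0) and 3 week hypergravity BMDM (83.3) overlapped in turn, and for Hp so did 3 week hypergravity and 1 week control BMDM (28.7 and 27.1 CPM). For Slpi and Orm1 the 4 BMSC groups came next, from 14.6 to 9.32 and from 1.55 to 1.25 CPM, most of which overlapped. Ptx3 had the reverse arrangement of cell types. Its 4 BMSC groups led, from 99.9 to 27.9 CPM, and 1 week hypergravity BMDM came next at 8.69 CPM. Control BMSC exceeded control BMDM by log2 5.39 for Ptx3 in the 1 week set and 4.99 in the 3 week set, by 3.47 and 4.17 for Saa3, and by 0.67 and 1.64 for C3.

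Profiles over the 8 groups were compared by the root mean square (RMS) difference of centred log2 group means, over the 12794 genes whose mean was 1 CPM or more. Nearest to Saa3 were Clec4e, a receptor for mycobacterial glycolipid, at 1.13 log2 units, Il1a at 1.203 and Il6 at 1.27. Slpi was nearest to Socs3 (0.535), AA467197 (0.569) and Egln3 (0.634), and C3 to Nr4a3 (0.188), Tgm2 (0.291) and Fam46c (0.311). Hp was nearest to Cp (0.417), another acute phase gene, then Cd38 (0.487) and Adm (0.515), and Orm1 to Ier3 (0.259), Cxcl9 (0.282) and Arg2 (0.292).

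Lcn2 had Inhba (0.758), Edn1 (0.877) and Hp (0.952) nearest. Ptx3 was nearest to Gja1 (0.244), the gap junction gene of stromal cells and bone, Cnn3 (0.305) and Pdgfrb (0.324), the last being one of the 9 stromal markers. Among the 7 genes themselves Saa3 and Ptx3 were farthest apart, at 4.32. Outside 1 week hypergravity BMDM the group means of Orm1 were at most 1.55 CPM, where the 0.5 CPM added before taking logs flattens its profile. The same holds for Nr4a3, the gene nearest to C3, at 0 to 1.24 CPM in those groups. It holds in part for other profiles. Il6, near Saa3, was at 0 to 0.822 CPM in control BMDM and in BMSC. In BMDM other than 1 week hypergravity, Inhba, Edn1, Adm and Ptx3 itself were at 0.0742 to 1.16 CPM. Distance grows with the range of a profile, which was 12.4 log2 units for Saa3 and 4.49 for C3.

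Genes of the same reactions outside the 7 were tested in the same fits, in 5 lists of 102 genes. In 1 week BMDM, 76 were tested, of which 31 rose and 30 fell, and their median log2 difference was -0.12. Over all genes in this comparison 30.5% were called higher and 30.8% lower. Of the 21 other acute phase genes only 8 had enough counts, and 6 of these rose and none fell (median 5.07). Saa1 among the 6 had 0 counts in controls, so it passed the filter through the hypergravity libraries and could only rise. Mt2, a metallothionein, rose from 1.38 ± 0.735 CPM (SD, n = 3) to 90.1 ± 5.95 CPM (n = 2; log2 6.39 ± 0.34, edgeR adjusted p = 1.562e-07). Cp, the copper-binding ferroxidase ceruloplasmin, rose from 7.94 ± 4.02 to 219.2 ± 5.06 CPM (5.08 ± 0.30, adjusted p = 2.936e-07). The serpin genes Serpina3f and Serpina3g rose by log2 6.16 ± 0.34 and 5.07 ± 0.24 (adjusted p = 2.052e-07 and 6.686e-08). Serpina3n, an acute phase serpin of the liver, had 6 counts over the controls and 1 under hypergravity and was not tested.

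Complement genes other than C3 went mostly the other way. Of 13 tested, 2 rose and 7 fell (median -0.60). The C1q subunit genes C1qb and C1qc fell (log2 -1.19 and -1.45, edgeR adjusted p = 3.232e-06 and 2.284e-06). C1ra, a protease of the C1 complex, rose (2.67 ± 0.22, adjusted p = 3.468e-06). Cfb, the protease of the alternative pathway, had 141 counts against 2, a ratio of 92.3 (counting interval 25.1 to 769.8, adjusted p = 3.9e-05). With 2 counts in controls, it passed the filter through the hypergravity libraries and could hardly fall. Cfb lies at 34 to 38 Mb of chromosome 17, where 51.1% of 186 protein-coding genes, C2, C4a and Tnf among them, were at 0 in all libraries, against 19.9% of 20638 overall. In the stretch with C3 (56 to 58 Mb) the share was 8.62% of 58.

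Of 18 receptors and partners of the 7 proteins tested, 4 rose and 12 fell (median -0.87). The formyl peptide receptor genes Fpr2, whose product also binds serum amyloid A, and Fpr1 rose by log2 5.58 ± 0.15 and 5.32 ± 0.27 (edgeR adjusted p = 2.111e-09 and 1.193e-07). Tlr2, another reported sensor of serum amyloid A, rose from 72.0 ± 18.3 CPM (n = 3) to 355.6 ± 2.17 CPM (n = 2; 2.57 ± 0.16, adjusted p = 5.503e-07). Genes of other reported serum amyloid A receptors fell, namely Tlr4, Cd36 and Scarb1 (log2 -1.13, -1.04 and -0.97, adjusted p = 0.0002339, 4.302e-06 and 1.97e-05). C3ar1, the receptor for the C3 fragment C3a, fell from 1135 ± 19.4 to 465.1 ± 0.393 CPM (-1.02 ± 0.08, adjusted p = 1.449e-06). The C5a receptor genes C5ar1 and C5ar2 fell (log2 -1.90 and -5.10, adjusted p = 1.053e-07 and 1.724e-08). Cd163, which in humans takes up the haptoglobin-haemoglobin complex, fell by 6.50 ± 0.97 (adjusted p = 0.0002377; -7.06 to -5.39 with 1 library left out), from controls at 9.93 to 52.9 CPM. Slc22a17, a reported lipocalin 2 receptor, had 67 counts in controls and 3 under hypergravity (adjusted p = 0.00321).

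Among inducing ligands, their receptors and transcription factors, 16 of 23 tested rose and 6 fell (median 1.24). Il1b and Il1a rose by log2 9.11 ± 0.19 and 8.89 ± 0.20 (edgeR adjusted p = 8.81e-10 and 9.578e-10), and Il6 had 16102 counts against 3 (adjusted p = 2.039e-09). With 3 counts in controls, Il6 passed the filter through the hypergravity libraries and could hardly fall. Socs3, the feedback inhibitor of interleukin-6 signalling, rose by 8.46 ± 0.20 (adjusted p = 9.691e-10). Nfkbiz, which encodes a nuclear NF-kappaB cofactor needed for Lcn2 induction in mice, rose by 4.01 ± 0.14 (adjusted p = 1.117e-08), and Stat3 by 2.11 ± 0.12 (adjusted p = 2.711e-07). The C/EBP family divided, with Cebpb higher (1.81 ± 0.24, adjusted p = 0.0001011) and Cebpd lower (-0.54 ± 0.15, adjusted p = 0.01166; -0.39 and adjusted p = 0.1231 without hypergravity replicate 2). Il6ra, the interleukin-6 receptor, fell by 1.73 ± 0.33 (adjusted p = 0.001136).

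Of 14 other secreted defence genes tested, 3 rose and 5 fell (median -0.24). Retnlg among the 5 had 0 counts under hypergravity and could only fall. Wfdc17 and Wfdc21, which share the protein fold of Slpi, rose by log2 2.18 ± 0.11 and 3.18 ± 0.36 (edgeR adjusted p = 9.347e-08 and 3.476e-05). The neutrophil granule genes Ltf (lactoferrin) and Ngp fell (log2 -3.54 ± 0.45 and -2.60 ± 0.42, adjusted p = 8.096e-05 and 0.0004098). S100a8 and S100a9, the subunits of calprotectin, were not called, at 0.51 ± 0.25 and -0.54 ± 0.36.

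In 3 week BMDM, 5 of the 76 rose and none fell in edgeR (2 lower at an unadjusted p below 0.05, and 0 in DESeq2). Of all genes, 0.426% were called higher and 0% lower. Il1b and Il1a rose by log2 6.13 ± 0.22 and 5.66 ± 0.24 (edgeR adjusted p = 3.809e-07 and 1.699e-06), Socs3 by 3.33 ± 0.22 (adjusted p = 3.75e-05) and Fpr2 by 1.49 ± 0.16 (adjusted p = 0.001407). Il6, at 0 in controls and 373 counts under hypergravity, was at least 126.2-fold higher (adjusted p = 2.182e-05). It was among the 5 that rose, but it passed the filter through the hypergravity libraries and could only rise. Nfkbiz (0.80 ± 0.15, adjusted p = 0.06763) and Tlr2 (0.86, adjusted p = 0.1545) were not called, and Stat3, Cebpb and Cebpd were at 0.00, -0.03 and 0.05. No gene of the other acute phase list was called in edgeR or had an unadjusted p below 0.05 (8 tested, median 0.05). Both were called with DESeq2, with no count filter, with the replicate block and without 1 week control replicate 3 (adjusted p from 1.284e-05 to 0.0006324 for Nfkbiz and from 8.212e-08 to 0.001563 for Tlr2), and Nfkbiz also without 1 week control replicate 1 (adjusted p = 0.01357).

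By the call rule, the response was higher at 3 weeks than at 1 week for 21.9% of all genes and lower for 21.5%. The difference between the responses at 3 and 1 week was called for 52 of the 76, 26 in each direction. Among the genes called were Mt2 (-6.49 ± 0.55), C5ar2 (5.20 ± 0.24), Socs3 (-5.13 ± 0.32) and Wfdc17 (-2.16 ± 0.16), with edgeR adjusted p of 1.194e-05, 5.724e-07, 2.183e-06 and 5.481e-06. Each had the opposite sign in the 1 week response itself. Serpina3g, Cp and Mt1 were lower at -5.80, -4.50 and -1.85, C1qb and C1qc higher at 1.31 and 1.53, and C1ra lower at -2.18.

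**Figure D5:**
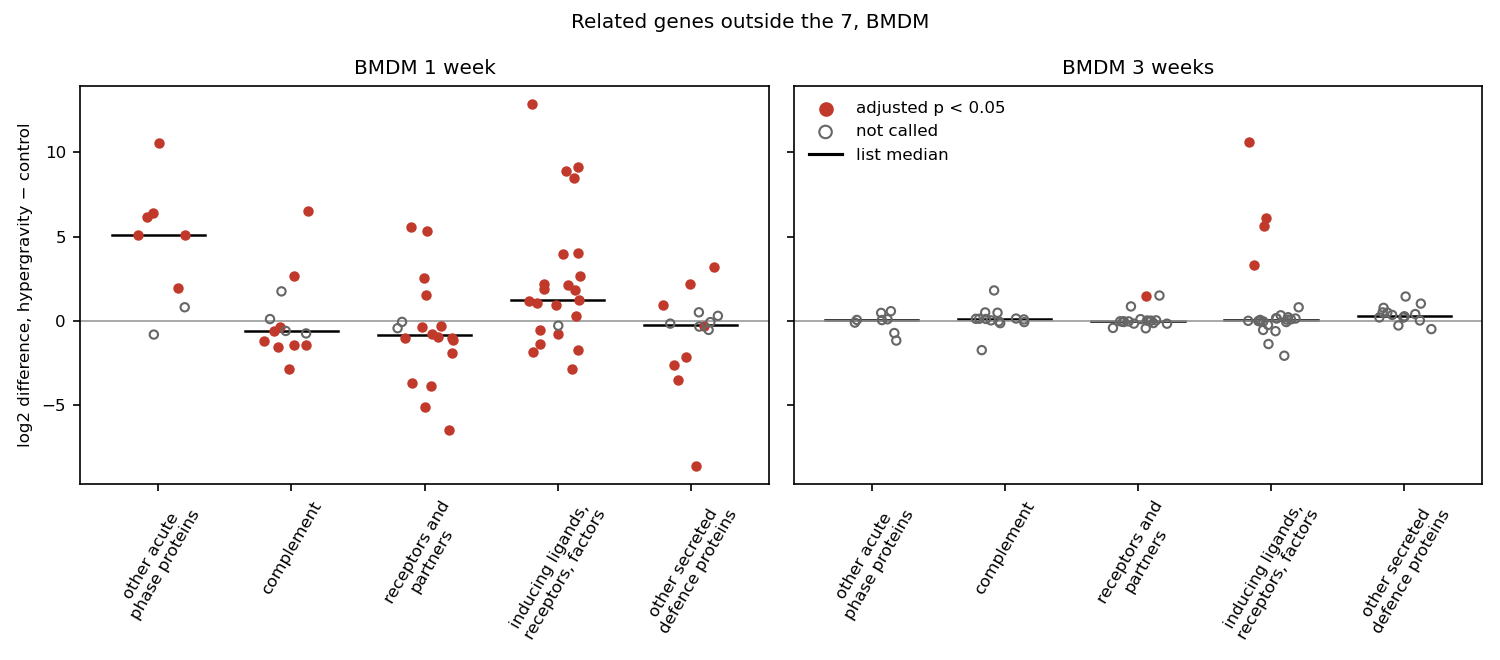
Log2 difference between hypergravity and control (vertical axis) of genes in the 5 related lists in BMDM at 1 week (left) and 3 weeks (right), 1 point per tested gene, filled red where the edgeR adjusted p was below 0.05, with the list median as a bar. At 1 week the medians run from -0.87 for receptors and partners to 5.07 for other acute phase proteins, and at 3 weeks 5 genes are called.

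In 1 week BMSC, 74 of the related genes were tested, and in edgeR none rose and 4 fell (5 and 8 at an unadjusted p below 0.05). Of all genes, 0.249% were called higher and 2.47% lower. Lrp1, a receptor that clears protease complexes, fell (log2 -0.73 ± 0.15), as did Rel (-1.19 ± 0.18), Il6ra (-0.59 ± 0.11) and its signal-transducing partner Il6st (-0.50 ± 0.11; edgeR adjusted p = 0.03421, 0.01376, 0.02237 and 0.04327). None of the 4 calls held without control replicate 1 or without hypergravity replicate 2, when no gene at all was called. In 3 week BMSC none of the 74 was called in edgeR, where 4 of them and 800 of all genes had an unadjusted p below 0.05 and DESeq2 called 1 gene, which was not on the lists. Between cell types, the 1 week response was called higher in BMDM for 24.8% of all genes and lower for 24.8%. The difference between cell types in the 1 week response was called for 54 of 76 genes, 28 higher and 26 lower in BMDM. Il1a (9.07 ± 0.28, adjusted p = 8.014e-13) and Serpina3g (4.69 ± 0.32, adjusted p = 4.305e-09) were among the higher and C5ar2 (-4.78 ± 0.29, adjusted p = 1.273e-09) among the lower, with Retnlg, which was at 0 in BMDM under hypergravity at 1 week (adjusted p = 0.0001724).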

How the data were processed

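The values are raw gene counts, as deposited by the authors, 1 column per library and 1 line per symbol; reads were aligned with HISAT2 2.0.4 against mm10, per the submitters' processing notes. How reads were assigned to genes (program, annotation, strand) is not given in the sources used here, so copies, overlapping and antisense genes are uncertain. All columns were mapped to samples by title (0 unmapped). CPM used raw library totals. Counts were tested with edgeR 4.0.16 (R 4.3.3; quasi-likelihood test, TMM scaling, filterByExpr, 1 coefficient per group), with 13842 genes in the 9 BMDM libraries, 15289 in the 10 BMSC libraries and 15550 in all 19, and adjusted by Benjamini-Hochberg over all of them.

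The 7 genes, the lists, the tests and the naming rule were chosen with earlier results of these data known. Named outside the 7 were 12 followed genes, up to 4 called genes of each list with the smallest p in each comparison, and 3 nearest profiles per gene (log2 of group mean CPM + 0.5); not all genes that the rule allows are printed, and Mt1, Tlr4, Cd36, Scarb1, S100a8, S100a9, Csf3r, Mpo, Retnlg, Saa1, Saa2, Saa4, Orm2 and Orm3 were named after their values were seen where the rule does not give them. Positions are from GENCODE M21, matched by symbol. Alternatives were DESeq2 1.42.0, its size factors, library totals, no count filter, the replicate number as a block, and omission of each library. Intervals and floors cover counting error only.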

Additional observations from a re-analysis of the deposited data

Results flagged for a closer look

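Several related genes responded differently at 3 weeks than at 1 week in BMDM, by a test of the difference between the 2 responses (log2, 3 weeks minus 1 week, edgeR adjusted p). Of the 12 genes followed, 4 had a lower response at 3 weeks, Nfkbiz at -3.21 ± 0.20 (2.183e-06), Stat3 at -2.10 ± 0.18 (1.363e-05), Cebpb at -1.83 ± 0.36 (0.002424) and Tlr2 at -1.72 ± 0.24 (0.0003408). Another 4, which had fallen at 1 week, had a higher response at 3 weeks, Cd163 at 6.08 ± 1.23 (0.002842), Slc22a17 at 3.26 ± 1.08 (0.03345), Il6ra at 1.89 ± 0.46 (0.007963) and C3ar1 at 1.05 ± 0.11 (4.141e-05). The Slc22a17 call was lost when any of 5 libraries was left out (adjusted p from 0.0584 to 0.147): 1 week control replicate 2, 1 week hypergravity replicate 2, either 3 week control or 3 week hypergravity replicate 1.

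The 1 week responses of BMDM and BMSC also differed by that kind of test (log2, BMDM minus BMSC). Higher in BMDM were Il6 at 13.2 ± 0.99 (edgeR adjusted p = 2.647e-08), from a fit in which BMDM controls had 3 counts, Nfkbiz at 4.19 ± 0.26 (1.826e-09), Tlr2 at 2.70 ± 0.20 (1.463e-08), Stat3 at 2.25 ± 0.14 (2.08e-09) and Cebpb at 1.87 ± 0.33 (0.0001607). Lower in BMDM were Cd163 at -5.68 ± 0.90 (6.143e-05), Slc22a17 at -3.98 ± 0.89 (0.001469), Il6ra at -1.15 ± 0.34 (0.01025), Cebpd at -0.80 ± 0.26 (0.01805) and C3ar1 at -0.70 ± 0.25 (0.02561). The Cebpd call was lost without BMDM hypergravity replicate 2 or BMSC hypergravity replicate 2 (adjusted p = 0.0968 and 0.0539), and that of C3ar1 without either BMDM hypergravity library, BMSC control replicate 2 or BMSC hypergravity replicate 3 (0.0512 to 0.0677).

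For 2 of the 7 genes every hypergravity library lay on 1 side of the control mean, and every control on the other side of the hypergravity mean, in a comparison and the reverse held in another, a difference that was not tested. Such opposite sides were common, in 14.9% of all genes between 1 and 3 weeks in BMDM, 8.95% in BMSC, and 18.2% and 18.3% between the cell types at 1 and 3 weeks. Ptx3 had a log2 difference of 3.15 in BMDM at 1 week and -0.61 at 3 weeks, and of 1.39 in BMSC at 3 weeks. C3 had 4.02 in BMDM and -0.62 in BMSC at 1 week, and 0.12 in BMSC at 3 weeks.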

How the results depend on the processing

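Of 118 results, no called one changed sign under the alternatives; 17 that were not called did, in 25 values, Orm1, Saa3, Slpi and C3 among them. In all, 1759 of 1891 recomputed values were classed as the same. Counts of called genes were so classed within a fixed factor, and the 7 genes when they moved by less than the spread. Followed genes were so classed when no call changed, also where an uncalled value changed sign. In BMDM at 3 weeks the called genes went from 59 to 95 with DESeq2, 205 with no count filter and 183 with the replicate block, and the related genes called from 5 to 8, 9 and 8. Leaving out 1 library gave 35 to 138 called genes (5 to 8 related), with 138 and 8 without 1 week control replicate 3, 35 without 3 week control replicate 2, and 37 without 3 week control replicate 1 or hypergravity replicate 1; of the 7 genes, 2 to 5 were then called higher, and 6 with no filter or the block. In BMSC at 1 week, 416 called genes became 884 with DESeq2, 1313 with no filter and 657 with the block, and 4 related genes became 15 with no filter and 8 with the block. Leaving out 1 library gave 0 to 1109 called genes and 0 to 6 related ones, with 0 without control replicate 1 or hypergravity replicate 2, 1109 without control replicate 3, and 123 to 255 without hypergravity replicate 1 or 3 or any 3 week BMSC library. DESeq2 called 1 of the 7 genes lower there, the block 2, and no filter 2 higher and 2 lower. Of all genes called there, 21.7%, 14.8% and 38% were higher under these 3 settings, and the rest were lower. With no filter in BMSC at 3 weeks, 2 of the 7 genes were called higher and 0 lower, where 90.2% of all called genes were higher. In BMSC at 3 weeks the 0 calls became 1 with DESeq2 and 592 with no filter (5 related), and stayed 0 whichever library was left out. Where a group of 2 lost a library, the lone sample was assumed to vary like the other groups. The cause was not tested.

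In BMDM at 1 week leaving out 1 library gave 6828 to 9518 called genes and 56 to 63 related ones. Scaling by library totals moved the median of all genes there from -0.03 to -0.29 and the share of higher among called genes from 49.7% to 34.7%, and the 7 genes stayed called higher. That scaling also moved the share from 9.13% to 23.8% in BMSC at 1 week, from 50.5% to 65.3% (median 0.02 to 0.24) for BMDM at 3 weeks minus 1 week, and from 50.1% to 33.2% (median -0.07 to -0.36) for BMDM minus BMSC at 1 week, with 0, 6 lower and 7 higher of the 7 genes called, as with TMM. Same-numbered libraries deviated together in some pairs only (r from -0.165 to 0.495), so the numbers were not taken as pairs. Crossing the numbers in 3 week BMDM, added after seeing the data, gave 268 called genes and 10 related ones. Depth limits Orm1 most, with 2 counts over the 3 week control BMDM. Calls of the 7 genes under any setting are only a description, since their levels chose them.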
